A study of Mus musculus with 64 samples.

Results

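The zinc finger genes named Zfp600 to Zfp999 were chosen by symbol alone: every row of the RNA-seq gene tables whose mouse gene symbol is Zfp followed by a number from 600 to 999. That rule found 130 rows with 129 different symbols among 26385 listed genes, because Zfp708 is listed under 2 gene identifiers. The rule uses no measured value. Most genes of this kind code for DNA-binding proteins built from repeated zinc fingers, each finger a short loop held by 2 cysteines and 2 histidines around a zinc ion. Those that also carry a KRAB box, a short domain near the start of the protein, recruit the corepressor TRIM28 and through it the histone methyltransferase SETDB1, and many of them silence retrotransposons or imprinted regions. Genes of this type often stand in arrays of near copies that arose by local duplication, and the numbers in their symbols follow the order of naming rather than relatedness.

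The study followed the male germ line of mice lacking MORC1, an ATPase of the germ line that is required for male fertility and for silencing of retrotransposons, and compared it with testes lacking DNMT3L, the cofactor of de novo DNA methylation, or labelled as lacking MIWI2, a PIWI protein that directs methylation to transposons. RNA-seq covered 47 libraries, 20 of sorted germ cells and 27 of whole testis, each from 1 mouse per the study's methods. In the Morc1 line a tyrosinase transgene inserted in Morc1 removes early exons of the gene, in the FVB/N strain. Germ cells from embryos (E16.5, E18.5, in days) and pups at postnatal day P2.5 were GFP-positive cells sorted after crosses into the Oct4-IRES-eGfp reporter, so those groups, knockout and control alike, carry the reporter and a mixed background. Germ cells at P10.5 were sorted by low side scatter, high EPCAM and absence of MHC class I. The control germ cells were Morc1 het (Morc1 tg/+) at each stage, with 2 libraries at E16.5, 2 at E18.5, 3 at P2.5 and 4 at P10.5, and the Morc1 KO (Morc1 tg/tg) germ cells had 2, 2, 2 and 3 libraries. Whole testis of the Morc1 line had 2 Morc1 het, 1 Morc1 WT and 3 Morc1 KO libraries at P10.5 and 3 Morc1 het and 3 Morc1 KO at P14.5. Whole testis at P10.5 of the Dnmt3l line had 3 DNMT3L WT, 3 DNMT3L het and 3 DNMT3L KO libraries, and that of the Miwi2 line had 2 Miwi2 het and 2 Miwi2 KO libraries, with no strain in the labels for either line. A further 2 whole-testis libraries at P10.5 are labelled preliminary and entered no main comparison.

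Counts per library on genes ranged from 2413679 to 14918478 in germ cells and from 22509570 to 42137954 in testis, and the zinc finger genes took 0.351 to 0.463% of the reads in germ cells and 0.334 to 0.389% in testis. All 130 rows had reads in at least 1 library and 74 had a read in every library. Morc1 RNA was lower in each Morc1 KO group, and Dnmt3l was 0.0370 to 0.0464 RPKM (reads per kilobase of exons, scaled to the mapped reads of the library) in the DNMT3L KO testes. Piwil4, the gene of MIWI2, went against its label: it was 10.7 and 11.5 RPKM in the libraries labelled Miwi2 KO and 6.65 and 7.01 RPKM in the Miwi2 het, so these are called libraries labelled Miwi2 KO throughout. In sorted germ cells at P10.5 the 7 Sertoli cell markers tested were all lower than in testis (median log2 difference -4.66), and the 4 Leydig cell markers tested were lower by a median log2 difference of -8.78.

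The proteins fall into those with and without a KRAB box. When the longest coding transcript of each gene in the GENCODE vM1 annotation (mouse build NCBIM37, which is mm9) was translated, 129 rows had one, and 67 of them (51.9%) held a match to the conserved residues of a KRAB box, against 71 of the 196 coding genes named Zfp1 to Zfp599 (36.2%) and 1.21% of all 22737 coding genes. The KRAB proteins had a median of 12 zinc fingers (2 to 33) and the others a median of 7.5 (0 to 27). Of the 129, 6 had no finger by this pattern in the model used, Zfp850 among them, whose model is 140 residues long. Zfp783 had no coding transcript in the annotation. The genes lay on 19 chromosomes, and 69 rows stood in 14 clusters, defined as runs of at least 3 genes with no gap above 1000000 bases, including 43 of the 67 KRAB genes.

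The coding sequence shows how close neighbours in such a cluster can be over a short conserved stretch. The sequences below are the KRAB box stretch of the 5 genes of a cluster on chromosome 7, from GENCODE vM1 and the mm9 genome, 5′ to 3′ on the coding strand, with the codons of its first conserved residue and of its last 2 residues in capitals. They are shown because these 5 genes, although close together and alike over this short stretch, had different levels in the comparisons that follow.
Zfp936, chr7:50442558-50442590, + strand, exon 1 of 3: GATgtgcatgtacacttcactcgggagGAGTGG
Zfp715, chr7:50557057-50557089, − strand, exon 3 of 5: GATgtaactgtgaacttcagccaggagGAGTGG
Zfp658, chr7:50822656-50822688, + strand, exon 3 of 5: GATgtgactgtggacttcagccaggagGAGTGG
Zfp719, chr7:50841742-50841774, + strand, exon 3 of 4: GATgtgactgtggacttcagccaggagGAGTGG
Zfp819, chr7:50867371-50867403, + strand, exon 3 of 5: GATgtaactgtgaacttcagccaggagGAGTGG
Over these 33 bases Zfp715 and Zfp819 were identical, Zfp658 and Zfp719 were identical, and the pairs differed from each other at a few positions (31 of 33 bases shared). Zfp936 shared 25 or 26 of 33 bases with the others.

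Likeness over longer stretches bears on the counts, because the authors kept only reads that mapped to 1 location, and a read from a shared stretch has more. The coding sequences of 129 genes were cut into all windows of 50 bases, and by exact match 83 shared no window with another gene, 46 shared at least 1, 16 shared 10% or more and 4 shared 50% or more. Those 4 were Zfp600 (82.0% of windows), Zfp640 (66.2%), Zfp932 (55.4%) and Zfp934 (54.8%). Zfp932, known to bind endogenous retroviruses of the ERVK class, shares most of these windows with Gm15446, and this stretch of 50 bases, which holds its match to the conserved residues of a KRAB box, is found unchanged in both genes on the + strand.
Zfp932, chr5:110435972-110436021, exon 2 of 4: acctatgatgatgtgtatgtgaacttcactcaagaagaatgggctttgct
Gm15446, chr5:110369454-110369503: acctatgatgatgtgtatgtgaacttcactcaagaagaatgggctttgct
Levels of these 4 genes are therefore uncertain. Only exact matches of coding sequence to coding transcripts were sought, while the authors allowed mismatches in mapping. Near copies and copies outside coding transcripts were not counted, so other genes may be affected too. A further uncertainty is overlap: 22 rows overlap another listed gene, 9 on the same strand and 14 on the opposite strand, and their levels are uncertain. Counting used the default settings of HTSeq per the methods, which read strand, but the TruSeq v2 kit of the testis libraries does not mark it, so there the reads of a gene and its antisense partner cannot be told apart. Whether the kit of the germ cell libraries marks strand in the way that was counted was not settled, so germ cell levels of these rows, Zfp612, Zfp672 and Zfp800 among them, and their differences from testis are uncertain too.

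One gene without a KRAB box recurred in the results. Zfp672 (ENSMUSG00000049755) lies at chr11:58128616-58136848 on the − strand, and its model codes for 468 residues with 13 fingers. Its first finger is shown as an example of the unit that these genes repeat, with the codons of the 2 cysteines and 2 histidines in capitals.
Zfp672, first finger, chr11:58130885-58130947, − strand, exon 3 of 3: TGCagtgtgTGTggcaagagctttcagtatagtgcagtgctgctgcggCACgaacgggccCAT
Zfp672 shared no window of 50 bases with another gene. It overlaps 1700047K16Rik on the opposite strand over 359 bases.

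Most of the zinc finger genes were detected in control germ cells, at a median of a few RPKM. In Morc1 het germ cells the median over the 130 rows was 2.27 RPKM at E16.5, 2.06 at E18.5, 2.28 at P2.5 and 2.80 at P10.5, and 98, 92, 88 and 101 rows (75.4, 70.8, 67.7 and 77.7%) reached a group mean of 1 RPKM, while 50.1, 49.5, 45.9 and 43.8% of all listed genes did. Between 10 and 14 rows reached 10 RPKM at these stages. In control testis of the Morc1 line the median was 4.85 RPKM at P10.5 and 3.71 RPKM at P14.5. The median of the KRAB genes stood below that of the others in each of these groups, at 2.11 against 3.83 RPKM in P10.5 germ cells and at 3.24 against 7.44 RPKM in P10.5 testis.

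A few genes were well above that range. The highest 5 in Morc1 het germ cells at E16.5 were Zfp609, known as a partner of the cohesin loader NIPBL and of Integrator, at 34.8 and 41.9 RPKM, Zfp644, a partner of the G9a and GLP methyltransferases, at 32.7 and 42.7 RPKM, Zfp664 at 19.2 and 24.5 RPKM, Zfp828, also called Champ1 and active in chromosome alignment, at 14.2 and 16.7 RPKM, and Zfp655 at 13.0 and 17.9 RPKM. At P2.5 Zfp710 joined them, with 36.0 ± 1.71 RPKM (SD, n = 3), and Zfp664 averaged 50.3 ± 9.66 RPKM (SD, n = 3). At P10.5 the order was Zfp664 at 33.7 ± 1.69, Zfp609 at 30.5 ± 1.42 and Zfp644 at 30.5 ± 0.70 RPKM (SD, n = 4), and the spread of the last 2 overlapped. In P10.5 testis controls of both lines (n = 9) another set led, with Zfp740 at 41.5 ± 0.84, Zfp687, a zinc finger partner of ZMYND8, at 30.9 ± 1.12, Zfp664 at 30.5 ± 1.66, Zfp706 at 26.9 ± 0.80 and Zfp644 at 23.5 ± 2.70 RPKM (SD). Zfp664 and Zfp644 led in both kinds of sample.

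**Figure D1:**
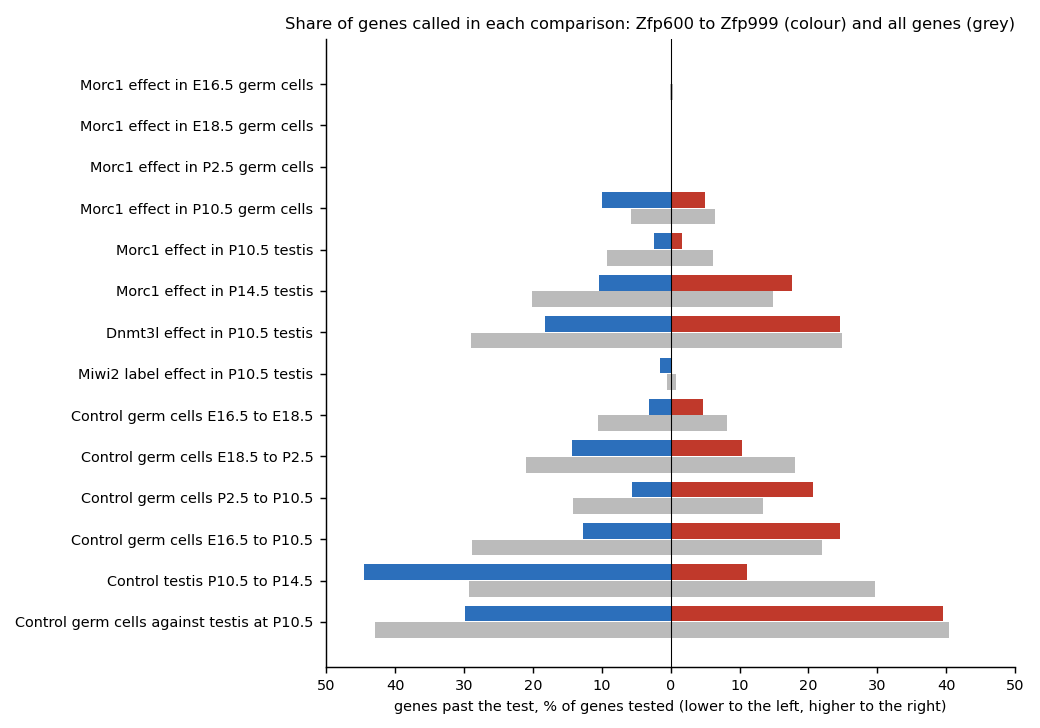
Percent of genes tested that were higher or lower at an edgeR adjusted p under 0.05 in each comparison, for the zinc finger genes Zfp600 to Zfp999 (colour) and for all genes tested (grey). In control testis from P10.5 to P14.5, 56 of 126 zinc finger genes were lower, while 29.2% of all genes were, and in E16.5, E18.5 and P2.5 germ cells none was called between Morc1 genotypes.

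The first question was how these genes changed in control germ cells from mitotic arrest before birth to P10.5. The sorted cells at P10.5 expressed markers of spermatogonia and of early meiosis. The comparison of Morc1 het germ cells at P10.5 with E16.5 called 31 members of the family higher and 16 lower of 126 tested (edgeR quasi-likelihood test, Benjamini-Hochberg adjusted p under 0.05), while 50.7% of all genes tested were called, 21.9% higher and 28.8% lower. The median log2 difference was 0.44 for the zinc finger genes and -0.18 for all genes. Of the genes without a KRAB box 23 of 61 were higher and 7 lower, and of those with one 8 were higher and 9 lower of 64, a difference that was not tested. Without the E16.5 het replicate 2 the calls numbered 28 in place of 47. Genes named Zfp1 to Zfp599 were higher in 42 and lower in 27 of 194. Libraries before P10.5 differ from those at P10.5 in the sorting gate and strain background as well as in age, and these cannot be told apart. Here and in the testis comparisons, fewer cells of a type and less RNA per cell cannot be told apart.

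Zfp608 fell far. It was 10.3 and 14.7 RPKM in the 2 libraries at E16.5, then 27.2 and 21.7 at E18.5, next 1.02, 0.659 and 0.563 at P2.5, and 0.266, 0.153, 0.0909 and 0.196 at P10.5. The groups did not overlap, with the peak at E18.5 and a drop of more than an order of magnitude around birth. Genes named for the largest differences were drawn from calls whose groups do not overlap. For them, here and below, a lack of overlap follows from the choice and adds no support. Its log2 difference was 0.99 ± 0.25 (SE) from E16.5 to E18.5 (edgeR adjusted p = 0.0115), -5.29 ± 0.28 from E18.5 to P2.5 (4.93e-09) and -6.01 ± 0.26 over the whole interval (1.12e-10). Zfp648, at low counts, had 47 reads over the E16.5 group and 0 over the P10.5 group, at least 20.5-fold lower when 3 reads are set in place of 0. The paralogue of Zfp608, Zfp609, stayed among the highest expressed of the family at every stage.

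Zfp641, a KRAB gene, and Zfp831 were also lower at P10.5 than at E16.5, by other courses. Zfp641 was 3.19 and 4.54 RPKM at E16.5, then 3.61 and 2.09 at E18.5, next 0, 0.280 and 0.398 at P2.5, and between 0.0392 and 0.221 in the 4 libraries at P10.5. It fell by 3.66 on the log2 scale from E18.5 to P2.5 (SE 0.75, edgeR adjusted p = 0.00128). Zfp831 was 3.61 and 4.57 RPKM at E16.5, then 2.59 and 1.41 at E18.5, next 1.70, 0.931 and 1.24 at P2.5 and 0.342 to 0.446 at P10.5. It was already called lower from E16.5 to E18.5 (-1.03), and its log2 difference from E16.5 to P10.5 was -3.31 ± 0.27 (edgeR adjusted p = 9.66e-08). Zfp618, which binds 5-hydroxymethylcytosine together with UHRF2, was 8.39 and 10.8 RPKM at E16.5, then 11.9 and 8.91 at E18.5, next 5.73, 6.76 and 7.47 at P2.5 and 1.62, 1.40, 1.09 and 1.22 at P10.5. Its main drop came after birth, with a log2 difference of -2.04 ± 0.14 from P2.5 to P10.5 (edgeR adjusted p = 1.5e-07).

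**Figure D2:**
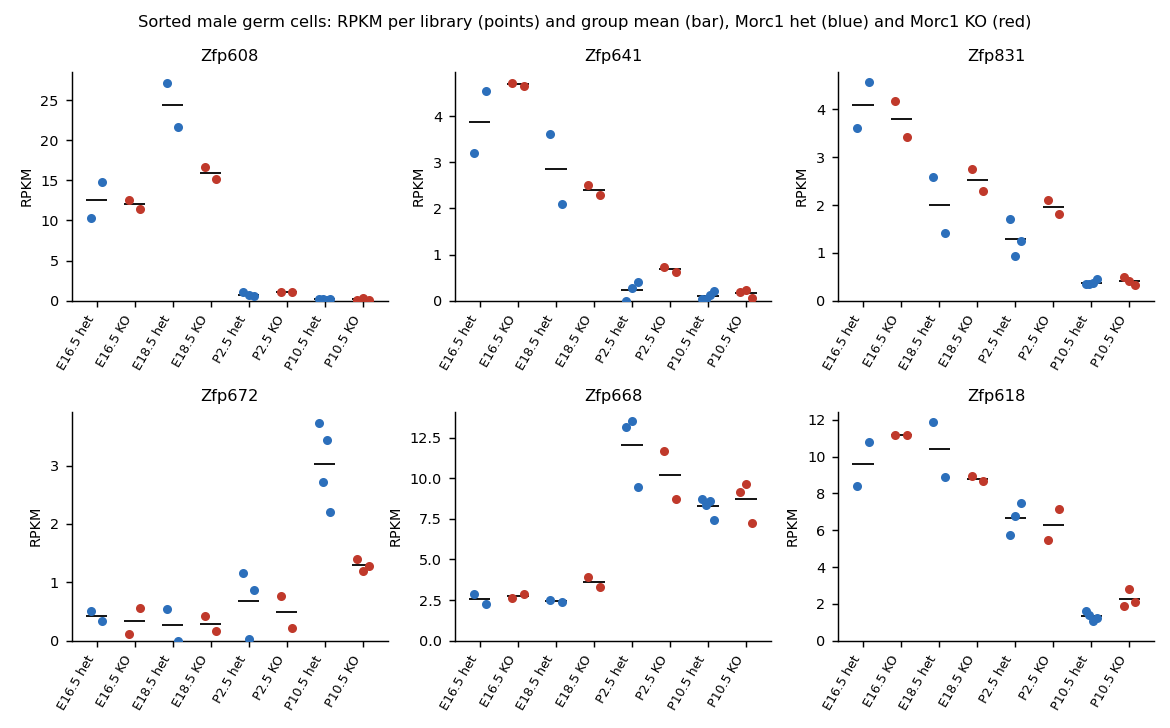
RPKM of 6 zinc finger genes in each library of sorted germ cells by stage, Morc1 het and Morc1 KO, with a point per library. The group means of Zfp608, Zfp641 and Zfp831 were lowest at P10.5, Zfp668 was higher at P2.5 and P10.5 than before birth, and Zfp672 stood apart between genotypes at P10.5.

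Other members rose. Zfp668 was 2.85 and 2.24 RPKM at E16.5, then 2.48 and 2.38 at E18.5, next 13.2, 13.5 and 9.47 at P2.5 and 7.43 to 8.71 at P10.5, so every library after birth lay above every library before it. The log2 difference from E18.5 to P2.5 was 2.13 ± 0.26 (edgeR adjusted p = 1.67e-05). Zfp746, also called PARIS and known as a repressor of PGC-1α, was 1.92 and 1.57 RPKM at E16.5, then 1.73 and 4.69 at E18.5, 7.26 to 9.87 at P2.5 and 9.70 to 11.6 at P10.5, a log2 difference over the interval of 2.71 ± 0.34 (7.26e-06). Zfp710 went from 8.07 and 9.09 RPKM at E16.5 to 14.7 and 14.4 at E18.5 and to 34.0, 37.0 and 36.9 at P2.5, and then to between 15.2 and 19.2 at P10.5. It was thus higher at each step until P2.5 and lower after it (-0.75 from P2.5 to P10.5). Zfp933 was 1.14 and 1.04 RPKM at E16.5, then 1.07 and 0.245 at E18.5 and 3.41 to 4.25 at P2.5, with a log2 difference from E18.5 to P2.5 of 2.43 ± 0.44 (edgeR adjusted p = 0.000497).

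Step by step, few members moved between E16.5 and E18.5: 6 were higher and 4 lower of 126, while 18.7% of all genes were called, 8.13% higher and the rest lower. The 6 that rose were Zfp608, Zfp644, Zfp664, Zfp703, Zfp704 and Zfp710. Zfp703, a corepressor of the NET family, was 1.55 and 1.31 RPKM at E16.5 and 5.33 and 3.88 at E18.5, a log2 difference of 1.68 ± 0.33 (edgeR adjusted p = 0.00198), and Zfp704 had one of 0.95 (0.0316). Of the 4 that were lower, the calls of Zfp639, Zfp667 and Zfp831 were lost under 6 to 10 of 14 alternatives, among them the omission of single libraries. The number of calls depended on few libraries, being 2 without the E16.5 het replicate 1, 4 without the E16.5 het replicate 2, 32 without the E18.5 het replicate 1 and 17 without the P2.5 het replicate 1.

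Around birth, from E18.5 to P2.5, 13 were higher and 18 lower of 126, and 39.1% of all genes were called, 18.1% higher and 21.0% lower. Of the genes with a KRAB box 1 was higher and 9 lower of 64, and of those without 12 were higher and 9 lower of 61, a difference that was not tested. Zfp938, a KRAB gene among the falls, was 7.31 and 4.34 RPKM at E18.5 and 0, 1.25 and 1.49 at P2.5, a log2 difference of -2.69 ± 0.57 (edgeR adjusted p = 0.00178). Of the 10 genes in a chromosome 17 cluster described further on, 5 were lower. Zfp850 had 42 reads over the P2.5 group (3, 33 and 6 in its libraries) and 0 over the E18.5 group. With the absent reads set to a floor of 3 over the group, it was at least 7.16-fold higher by pooled reads. Most of these reads came from 1 library, and the bound does not cover the spread between libraries. Without the E18.5 het replicate 1 the calls numbered 52 in place of 31.

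From P2.5 to P10.5, 26 were higher and 7 lower of 126, with 27.6% of all genes called, 13.4% higher and 14.2% lower, and with a median log2 difference of 0.54 against 0.02 over all genes. Of the KRAB genes 14 were higher and 1 lower of 64. Zfp809, which recognises the proline primer binding site of murine leukaemia viruses and silences them, was 2.22, 3.10 and 0.463 RPKM at P2.5 and 8.84, 5.80, 7.84 and 8.04 at P10.5. All P10.5 libraries lay above all P2.5 libraries, with a log2 difference of 2.25 ± 0.80 (edgeR adjusted p = 0.0471), a call lost under 10 of 14 alternatives. Zfp672 was 1.15, 0.0318 and 0.872 RPKM at P2.5 and 3.73, 2.72, 3.43 and 2.21 at P10.5 in Morc1 het cells, with a log2 difference of 2.50 ± 0.83 (0.0348), lost under 6 of 14. Zfp783 had 156 reads over the P10.5 group and 0 over the P2.5 group, a rise of at least 23.9-fold when 3 reads are set in place of 0. It overlaps Zfp956 on the same strand over 2524 bases, so reads of the 2 may be split between them. Leaving out either E18.5 het library, which share the fit, gave 53 (replicate 1) and 55 (replicate 2) calls in place of 33.

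The next comparison set Morc1 het germ cells at P10.5 against control testis of the same age and line. Of 124 tested, 49 were higher in germ cells and 37 lower, while 83.3% of all genes were called, 40.4% higher and 42.9% lower. Sorted cells and whole testis were made with different library kits, so tissue and library kit cannot be told apart. KRAB genes were higher in 27 and lower in 16 of 63, and the others higher in 22 and lower in 21 of 60.

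Zfp936 was 7.57, 9.06, 8.17 and 6.75 RPKM in germ cells and 1.69, 1.85 and 1.79 RPKM in testis, with no overlap and a log2 difference of 2.85 ± 0.18 (edgeR adjusted p = 7.8e-10). It shares 26.6% of its 50-base windows with other genes, mostly Gm5595. Zfp612, which shares 7379 bases with the opposite-strand gene Gm17720, was 11.7, 12.6, 9.88 and 11.2 RPKM in germ cells and 4.41, 5.23 and 5.01 in testis (log2 difference 1.92 ± 0.12, 6.67e-10). Zfp831 was low in both, at 0.342 to 0.446 RPKM in germ cells and 0.0817, 0.0965 and 0.0785 in testis (2.83 ± 0.27).

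Of the 16 genes lower at P10.5 than at E16.5 in germ cells, 6 were lower in germ cells than in testis (Zfp607, Zfp608, Zfp618, Zfp641, Zfp654 and Zfp677) and 5 were higher (Zfp600, Zfp819, Zfp820, Zfp831 and Zfp943). Zfp608 was 3.12, 3.65 and 3.61 RPKM in testis (log2 difference of germ cells from testis -3.59 ± 0.22, edgeR adjusted p = 6.04e-10), and Zfp641 was 3.41, 3.16 and 3.15 RPKM (-4.24 ± 0.32). Zfp764 had 3 reads over the 4 germ cell libraries and 323 over the 3 testis libraries, a ratio of testis to germ cells of 43.9 (95% interval 14.9 to 214, counting error only), and it shares 34.6% of its windows with other genes, chiefly 9130019O22Rik. Zfp763 was 0.420 to 0.818 RPKM in germ cells and 3.52 to 4.17 RPKM in testis, with a log2 difference of -2.004 ± 0.22.

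In control testis from P10.5 to P14.5, an interval in which germ cells enter meiosis, 56 of 126 tested were lower, 14 were higher and the rest were not called, while 58.8% of all genes were called, 29.2% lower and 29.6% higher. The median log2 difference was -0.22, and 0.00 over all genes. KRAB genes were lower in 33 and higher in 4 of 64 (median -0.35), the others lower in 23 and higher in 10 of 61 (-0.10), and Zfp1 to Zfp599 lower in 89 and higher in 22 of 193 (-0.20). Cell markers moved in the same libraries: all 7 early meiosis markers tested were higher (median log2 difference 2.09), as were all 5 pachytene markers (3.72), and 5 Sertoli markers were lower and 1 higher of 7 (-0.69). Their part in the result was not tested.

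Among the 14 that rose, Zfp872, Zfp672, Zfp654, Zfp653 and Zfp800 had the largest differences. Zfp672 was 5.35, 4.88 and 5.45 RPKM at P10.5 and 13.8, 12.5 and 14.2 RPKM at P14.5 (log2 difference 1.36 ± 0.08, edgeR adjusted p = 1.37e-06). Zfp654 was 5.88, 6.57 and 5.6 RPKM at P10.5 and 13.1, 12.3 and 15.7 RPKM at P14.5 (1.18 ± 0.10, 1.09e-05). For both genes the P14.5 libraries all lay above the P10.5 libraries, a condition for naming the largest rises. Zfp872, a KRAB gene, was 0.420, 0.219 and 0.327 RPKM at P10.5 and 1.16, 0.937 and 0.894 RPKM at P14.5 (1.62 ± 0.26, 0.000507), and its neighbour Zfp653 on chromosome 9 was 9.80, 8.69 and 9.40 RPKM and then 16.7, 14.9 and 17.2 RPKM (0.80 ± 0.08, 2.24e-05). The levels of the 2 neighbours thus differed in size but not in direction. Zfp800, which overlaps 6530409C15Rik on the opposite strand over 20932 bases, was 6.24, 7.67 and 6.88 RPKM and then 10.52, 10.2 and 11.2 RPKM (0.61 ± 0.09, 0.000182).

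Zfp618 led the falls, from 6.48, 6.72 and 6.99 RPKM at P10.5 to 2.43, 2.85 and 2.14 RPKM at P14.5 (log2 difference -1.45 ± 0.09, edgeR adjusted p = 1.93e-06). Zfp651 went from 9.91, 8.63 and 10.0 RPKM to 4.09, 4.38 and 3.40 RPKM (-1.27 ± 0.09, 3.7e-06). Zfp827, known to bring the NuRD complex to telomeres kept up without telomerase, went from 6.99, 7.69 and 7.52 RPKM to 3.28, 3.8 and 2.86 RPKM (-1.17 ± 0.09, 6.15e-06). For these 3 every P14.5 library was below every P10.5 library, a condition for naming the largest falls. Zfp750, a regulator of epidermal differentiation, and Zfp648 also fell, from levels below 1 RPKM.

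Loss of MORC1 was then examined at each stage. In germ cells before P10.5 edgeR called none of the members tested: none of 125 at E16.5, where 0.385% of all genes were higher and 0.0361% lower (0.421% in all), none of 110 at E18.5, where 0.0416% were higher and 0% lower, and none of 118 at P2.5, where 0.0416% were higher and 0.00694% lower (0.0486% in all). At an unadjusted p under 0.05 there were 8, 6 and 1 members, while 8.70, 6.21 and 4.84% of all genes passed it. Counts on genes were 2413679 to 6880081 a library at E18.5 and P2.5, and 7474627 to 9641942 in germ cells at P10.5. Recovery of changes on simulated data was not examined for these earlier stages. A lack of calls there does not show a lack of change. DESeq2 called 3 members at E18.5, with 1.78% of all genes called. With 2 libraries a group in most of these comparisons, single libraries decided such counts: at E18.5, 3 members were called without the het replicate 1, and at P2.5, 1 was called without the KO replicate 2.

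In germ cells at P10.5, 6 members were higher and 12 lower in Morc1 KO of 121 tested, while 12.2% of all genes were called, 6.43% higher and 5.79% lower. The median log2 difference was -0.01, and 0.00 over all genes. Zfp672 had the clearest fall. It was 3.73, 2.72, 3.43 and 2.21 RPKM in Morc1 het and 1.39, 1.20 and 1.28 RPKM in Morc1 KO, with no overlap and a log2 difference of -1.30 ± 0.21 (edgeR adjusted p = 0.000158). Zfp783 was 0.379, 0.436, 0.604 and 0.820 RPKM in het and 0.133, 0.0973 and 0.227 RPKM in KO (-1.95 ± 0.48, 0.00818). These 2 calls held under each of the 11 alternatives run.

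The rises were led by Zfp771, Zfp773 and Zfp618. Zfp771 was 2.15, 1.48, 1.45 and 2.05 RPKM in Morc1 het and 5.30, 4.17 and 3.01 RPKM in Morc1 KO (log2 difference 1.14 ± 0.29, edgeR adjusted p = 0.00924). Zfp773, a KRAB gene, was 1.65, 2.06, 2.04 and 1.95 RPKM in het and 4.02, 2.90 and 3.56 RPKM in KO (0.78 ± 0.19, 0.00755). Zfp618 was 1.62, 1.40, 1.09 and 1.22 RPKM in het and 1.90, 2.83 and 2.08 RPKM in KO (0.69 ± 0.15, 0.00369). In each of these the KO libraries all lay above the het libraries, a condition for naming the largest rises. Zfp710, at 15.2 to 19.2 RPKM in het and 22.2, 24.8 and 22.5 RPKM in KO, was higher by 0.32 on the log2 scale (0.0107). Each of the 4 calls was lost without 1 KO library, at an edgeR adjusted p of 0.0796 for Zfp771 and 0.0522 for Zfp773 without KO replicate 1, and of 0.052 for Zfp618 and 0.0514 for Zfp710 without KO replicate 2.

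The calls of Zfp948 (log2 difference 0.40), Zfp763 (-1.60), Zfp810 (-0.91) and Zfp956 (-0.69) were lost under 5 to 7 of the 11 alternatives. Without KO replicate 2 the number of members called was 10, and without het replicate 1 it was 11, in place of 18. Spermatogonial markers differed between the same libraries: 4 of 8 markers of undifferentiated spermatogonia were higher and none lower in Morc1 KO, with a summed level of 187 to 233 RPKM against 147 to 158 RPKM, and 3 of 5 markers of differentiating spermatogonia were lower, at 91.3 to 108 RPKM against 134 to 162 RPKM. Early meiosis markers were lower in 4 of 7, at 155 to 159 RPKM against 176 to 196 RPKM. Their part in the results was not tested.

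When the Morc1 difference at P10.5 was tested against that at E16.5 in 1 fit, 1 member of 127 was called, with 1.71% of all genes called, 0.893% upward and 0.822% downward. This was Zfp945, at 7.08 and 7.69 RPKM in het and 5.40 and 6.10 RPKM in KO at E16.5, and at 3.52, 3.96, 3.84 and 2.99 RPKM in het and 5.11, 4.22 and 5.33 RPKM in KO at P10.5. KO was below het at E16.5 and above it at P10.5, a difference of differences of 0.82 ± 0.20 on the log2 scale (edgeR adjusted p = 0.0305), lost under 8 of 13 alternatives, including the omission of KO replicate 1, KO replicate 3, het replicate 1 or het replicate 4 at P10.5 or of het replicate 2 at E16.5, each of which left no call. At an unadjusted p under 0.05 there were 15 members, while 14.2% of all genes passed it.

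In whole testis at P10.5, 2 members were higher and 3 lower in Morc1 KO of 126 tested, while 15.3% of all genes were called, 6.08% higher and 9.26% lower. Zfp672 was again lower, at 5.35, 4.88 and 5.45 RPKM in controls and 3.93, 3.33 and 3.58 RPKM in KO (log2 difference -0.52 ± 0.08, edgeR adjusted p = 0.00252), and this call held under all 12 alternatives. Zfp641 was 3.41, 3.16 and 3.15 RPKM in controls and 3.76, 4.53 and 4.80 RPKM in KO (0.45 ± 0.10, 0.012), a call lost without KO replicate 3 (0.0752). Zfp622, a maturation factor of the large ribosomal subunit, was 18.46, 17.1 and 17.7 RPKM in controls and 15.6, 14.7 and 14.1 RPKM in KO (-0.25 ± 0.06, 0.0142), lost under 3 of 12. The calls of Zfp764 (0.40) and Zfp786 (-0.51) were lost under 9 and 6 of 12. The number of calls was 1 without KO replicate 3, and 3 without the WT library, without het replicate 3 or with the replicate number as a block.

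At P14.5, 22 members were higher and 13 lower in Morc1 KO testis of 125 tested, while 34.8% of all genes were called, 14.8% higher and 20.1% lower. The median log2 difference was 0.15, and 0.01 over all genes. KRAB genes were higher in 14 and lower in 3 of 64, the others higher in 8 and lower in 10 of 60, and Zfp1 to Zfp599 higher in 38 and lower in 22 of 195. The difference between the KRAB genes and the others was not tested. Meiotic markers fell in the same libraries, with all 7 early meiosis markers lower (summed level 105 to 121 RPKM in KO and 318 to 444 RPKM in het), 4 of 5 pachytene markers lower, and all 7 Sertoli markers higher (3795 to 4749 RPKM and 2883 to 3266 RPKM). Their part in the result was not tested.

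The falls at P14.5 included all 5 genes with the largest rises in control testis over the preceding days. Early meiosis markers also rose over those days and were lower in KO. The share of all rising genes that were lower in KO was not counted, so the overlap is not particular to this family. Zfp672 was 13.8, 12.5 and 14.2 RPKM in het and 7.44, 6.69 and 6.06 RPKM in KO (log2 difference -0.997 ± 0.09, edgeR adjusted p = 0.000158). Zfp654 was 13.1, 12.3 and 15.7 RPKM in het and 6.82, 7.53 and 6.42 RPKM in KO (-0.98 ± 0.11, 0.000359). Zfp800 was 10.52, 10.2 and 11.2 RPKM in het and 6.90, 6.28 and 6.76 RPKM in KO (-0.67 ± 0.07, 0.000271). For each of them the KO testes at P14.5 lay between the P10.5 and the P14.5 control testes or at the P10.5 level. Zfp872 was 1.16, 0.937 and 0.894 RPKM in het and 0.457, 0.504 and 0.382 RPKM in KO (-1.14 ± 0.23, 0.00522), and Zfp653 was 16.7, 14.9 and 17.2 RPKM in het and 10.6, 11.7 and 10.7 RPKM in KO (-0.56 ± 0.09, 0.00172). The stage comparison and the genotype comparison share the 3 Morc1 het libraries at P14.5 and are not independent.

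Among the rises at P14.5, Zfp618 was 2.43, 2.85 and 2.14 RPKM in het and 3.62, 3.74 and 4.86 RPKM in KO (log2 difference 0.73 ± 0.14, edgeR adjusted p = 0.00387). Zfp641 was 3.25, 3.20 and 3.01 RPKM in het and 4.70, 4.53 and 4.73 RPKM in KO (0.57 ± 0.08, 0.00086). Zfp773 was 0.569, 0.758 and 0.449 RPKM in het and 1.03, 0.952 and 1.03 RPKM in KO (0.77 ± 0.20, 0.0183). All KO libraries of these 3 lay above the het libraries, a condition for naming the largest rises. The calls of Zfp773, Zfp825 (0.55) and Zfp882 (0.53) were lost under 3, 4 and 3 of 10 alternatives. The number of members called was 19 without het replicate 1 and 22 without het replicate 3 or without KO replicate 3, in place of 35.

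**Figure D3:**
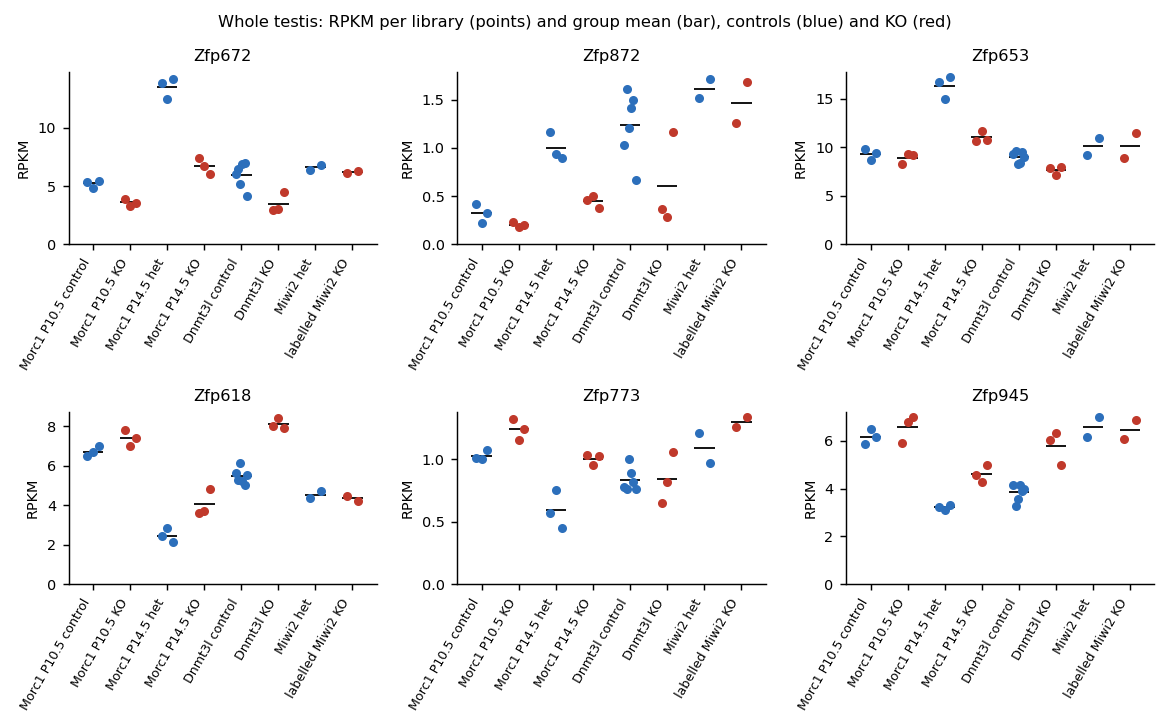
RPKM of 6 zinc finger genes in each whole testis library, by line, age and genotype, with a point per library. Zfp672 was lower in Morc1 KO at both ages, and the P14.5 Morc1 het libraries were the highest for Zfp672 and Zfp653.

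Morc1 KO germ cells at P10.5 and Morc1 KO testis at P14.5 were compared with different control libraries. Zfp618, Zfp773 and Zfp948 were higher in both and Zfp654, Zfp672, Zfp800 and Zfp956 lower in both. Of the 121 members tested in both, the 3 shared rises were 50.0% of those in germ cells and 13.6% of those in testis, and over all genes tested in both the shares were 33.6 and 14.2%. The 4 shared falls were 33.3% of the falls in either, and over all genes 39.6 and 11.1%. Zfp606, Zfp763 and Zfp827, 25.0% of the falls in germ cells, were higher in the testis, as were 15.2% over all genes. Zfp827 was 2.11 to 3.42 RPKM in het and 1.77 to 2.24 RPKM in KO germ cells (log2 difference -0.64, edgeR adjusted p = 0.00483), and 2.86 to 3.8 RPKM in het and 4.32 to 5.09 RPKM in KO testis at P14.5. The difference between these effects was not tested.

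The DNMT3L KO testes at P10.5 were compared with 6 controls of their line, 3 WT and 3 het. Of 126 members, 31 were higher and 23 lower, and 53.9% of all genes were called, 24.9% higher and 29.0% lower. In 44 of the 54 calls no KO library overlapped a control library, as in 80.7% of the calls over all genes. The median log2 difference was 0.06. KRAB genes were higher in 16 and lower in 8 of 64, the others higher in 14 and lower in 15 of 61, and Zfp1 to Zfp599 higher in 57 and lower in 30 of 193. Germ cell markers were lower in all 6 tested, with a summed level of 140 to 170 RPKM in KO and 378 to 507 RPKM in controls, all 7 early meiosis markers were lower (25.4 to 35.6 RPKM and 67.0 to 123 RPKM) and 5 of 7 Sertoli markers were higher. Their part in the result was not tested.

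Zfp618 was 5.63, 5.29 and 6.14 RPKM in WT, 5.22, 5.01 and 5.54 RPKM in het and 8.03, 8.42 and 7.92 RPKM in DNMT3L KO (log2 difference 0.62 ± 0.07, edgeR adjusted p = 1.58e-05). Zfp945 was 4.14, 3.28 and 3.56 RPKM in WT, 4.17, 3.89 and 3.99 RPKM in het and 6.02, 6.33 and 4.97 RPKM in KO (0.63 ± 0.10, 0.000187). Zfp763 was 3.15 to 3.55 RPKM in WT, 3.24 to 3.57 RPKM in het and 4.71, 5.40 and 4.09 RPKM in KO (0.56 ± 0.09, 0.000373). WT and het overlapped for all 3 genes, and the KO libraries stood above both. Zfp764 had the largest rise, from 1.03 to 1.30 RPKM in the controls to 1.79, 1.90 and 1.82 RPKM in KO (0.71 ± 0.11, 0.000263), with the share of windows that it has in common with other genes given above.

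The falls in DNMT3L KO included 2 genes of the chromosome 7 cluster whose KRAB box stretches are printed above. Zfp936 was 1.99, 1.58 and 1.90 RPKM in WT, 2.35, 1.82 and 1.70 RPKM in het and 0.532, 0.720 and 1.11 RPKM in KO (log2 difference -1.21 ± 0.22, edgeR adjusted p = 0.000567). Zfp819, known to repress endogenous retroviruses in embryonic stem cells, was 1.10, 1.04 and 1.29 RPKM in WT, 1.19, 0.916 and 1.21 RPKM in het and 0.647, 0.644 and 0.587 RPKM in KO (-0.80 ± 0.15, 0.000876). Both were also higher in sorted germ cells than in testis at P10.5. Zfp940 was 1.67, 1.91 and 2.04 RPKM in WT, 2.04, 1.90 and 2.10 RPKM in het and 1.16, 1.13 and 1.19 RPKM in KO (-0.70 ± 0.11, 0.00017). Zfp850 had the largest fall by size (-1.39 ± 0.37, 0.00677), at a low level. In the Morc1 WT testis library at P10.5 it had 23 reads. Its short model has no finger by the pattern used and shares 7.49% of its windows with Gtsf1l. Zfp672 was 6.07, 6.49 and 5.22 RPKM in WT, 6.92, 6.97 and 4.15 RPKM in het and 2.95, 3.01 and 4.49 RPKM in KO. It was called lower (-0.73 ± 0.17, 0.00353), but 1 het library lay below 1 KO library. The calls of the 10 genes with the largest non-overlapping differences held under all 15 alternatives. There are 2 members within 5 Mb of Dnmt3l, and whether alleles linked to the mutation play a part was not tested.

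Whether the 2 mutants differed was tested directly as the DNMT3L KO difference minus the Morc1 KO difference at P10.5. Of 126 members, 15 had a more positive log2 difference in the Dnmt3l line and 4 a more negative one, while 17.6% of all genes were called, 8.14% and 9.45%. The line, its strain and the genotype cannot be told apart in this test. Zfp936 had the most negative difference of differences: the Morc1 line had 1.69, 1.85 and 1.79 RPKM in controls and 1.65, 1.40 and 1.60 RPKM in KO, which gave -0.98 ± 0.27 on the log2 scale (edgeR adjusted p = 0.0208). Zfp819 (-0.82 ± 0.20, 0.0107), Zfp940 (-0.63, 0.0116) and Zfp661 (-0.51, 0.0288) followed. On the positive side were Zfp947 (0.65 ± 0.19, 0.026), Zfp938 (0.58, 0.0104), Zfp945 (0.58 ± 0.14, 0.0112), Zfp760 (0.57, 0.00679) and Zfp948 (0.53, 0.0205). Zfp945 stood at 5.85, 6.46 and 6.14 RPKM in Morc1 line controls and 5.92, 6.77 and 7.0 RPKM in its KO, levels above those of the Dnmt3l line controls. The calls of Zfp661, Zfp947, Zfp936 and Zfp948 were lost under 6, 5, 3 and 2 of 17 alternatives. The number of members called was 10 without the DNMT3L KO replicate 2 and 12 without the Morc1 KO replicate 2, in place of 19.

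**Figure D4:**
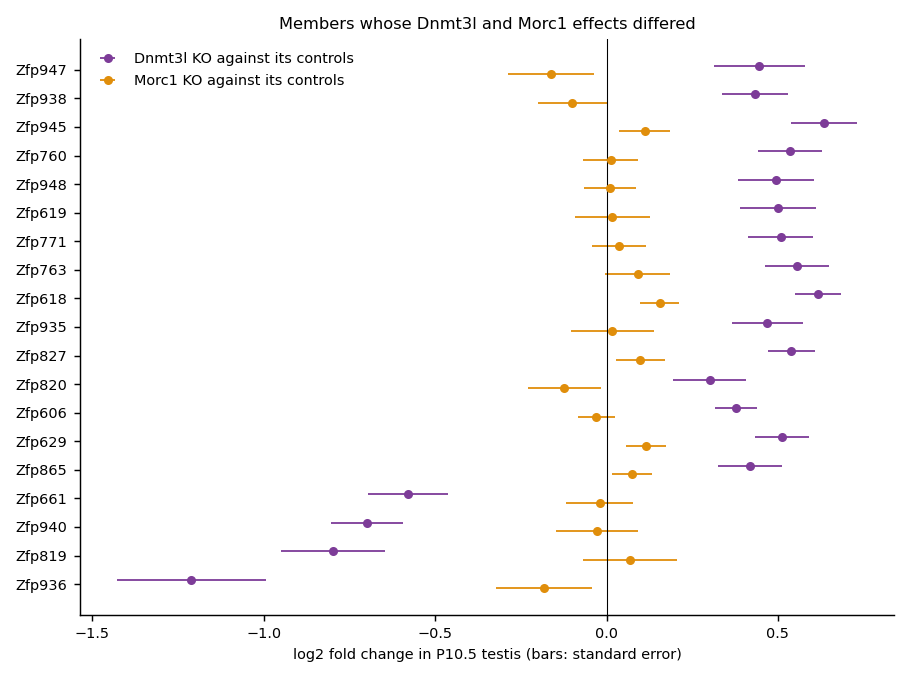
Log2 difference from controls, with SE, in DNMT3L KO and in Morc1 KO testis at P10.5 for the 19 zinc finger genes whose difference of differences was called. The 15 genes with a more positive difference in the Dnmt3l line include Zfp945 and Zfp947, and the 4 with a more negative one are Zfp661, Zfp819, Zfp936 and Zfp940.

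In the libraries labelled Miwi2 KO, whose Piwil4 RNA was not reduced, 2 members were lower and none higher of 126, with 1.23% of all genes called, 0.725% higher and 0.506% lower. At an unadjusted p under 0.05 there were 24, while 20.2% of all genes passed it. The count of 2 rests on an unpaired fit. A fit pairing het and labelled KO libraries by replicate number called many more members, a count given in the closing section. Same-numbered libraries deviated together with a correlation of 0.32. With 2 libraries a group both pairs must give the same correlation, so it counts as 1 observation. It cannot settle whether same-numbered libraries belong together. Zfp708 under the identifier ENSMUSG00000058883, known to bind the repeat RMER19B, was 4.49 and 4.01 RPKM in Miwi2 het and 2.37 and 2.54 RPKM in the libraries labelled KO (log2 difference -0.81 ± 0.11, edgeR adjusted p = 0.00466). Its neighbour Zfp738 was 4.41 and 4.69 RPKM in het and 3.29 and 3.47 RPKM in the libraries labelled KO (-0.45 ± 0.08, 0.0313), and it shares 41.3% of its windows with other genes, chiefly A530054K11Rik. Both calls held under the 7 alternatives that gave them an adjusted p, and the filter of DESeq2 gave neither one. The second Zfp708 row had a log2 difference of -0.54 (0.189) and Zfp712, in the same cluster, one of -0.31 (0.165). Without either het library in turn 5 members were called in place of 2. These directions are given by label only.

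The list used here of members with a published target or role is not complete and leaves out Zfp828. It held 19 rows, from transposon silencing (Zfp809, Zfp819, Zfp932, Zfp708) to splicing (Zfp830) and spermiogenesis (Zfp628). Of these, 1 was higher and 2 lower in Morc1 KO germ cells at P10.5 (6.43 and 5.79% of all genes), 0 and 1 in Morc1 KO testis at P10.5 (6.08 and 9.26%), 4 and 2 at P14.5 (14.8 and 20.1%), and 3 and 5 in DNMT3L KO (24.9 and 29.0%). In control germ cells from E16.5 to P10.5, 7 were higher and 2 lower (21.9 and 28.8% of all genes), and in control testis from P10.5 to P14.5, 1 was higher and 7 lower (29.6 and 29.2%). In germ cells against testis 9 were higher and 4 lower (40.4 and 42.9%). The transposon regulators had calls in different comparisons, and a difference between them was not tested. Zfp809 was called in no genotype comparison, with 10.4 to 11.9 RPKM in P10.5 testis controls of the Morc1 line and 9.82 to 11.3 RPKM in its KO. Zfp819 was lower in DNMT3L KO, Zfp932 higher in Morc1 KO at P14.5, and Zfp708 (ENSMUSG00000058883) lower in the libraries labelled Miwi2 KO. Zfp711, a partner of the demethylase PHF8, was lower both in Morc1 KO germ cells at P10.5 (log2 difference -0.36, edgeR adjusted p = 0.0476) and in DNMT3L KO testis. Zfp644 was lower in DNMT3L KO testis, at 15.8, 19.8 and 20.8 RPKM against 20.4 to 28.5 RPKM in controls.

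KRAB proteins act through corepressors, and 26 rows of that pathway were followed beside them. In Morc1 KO, 3 were higher and 1 lower in germ cells at P10.5 (6.43 and 5.79% of all genes), 0 and 7 in testis at P10.5 (6.08 and 9.26%), and 2 and 7 at P14.5 (14.8 and 20.1%). In DNMT3L KO 3 were higher and 11 lower (24.9 and 29.0%), and in the libraries labelled Miwi2 KO none was called, with 1.23% of all genes called. In DNMT3L KO the falls included Trim28 (log2 difference -0.16, edgeR adjusted p = 0.0256), Setdb1 (-0.39, 0.000696) and Dnmt1, the maintenance DNA methyltransferase (-0.73). In Morc1 KO germ cells at P10.5 Trim28 was higher by 0.24 (0.0354), and at P14.5 in testis it was lower, with a log2 difference of -0.26 (0.00756). In control germ cells from E16.5 to P10.5, where 13 were higher and 6 lower (21.9 and 28.8% of all genes), Trim28 had a log2 difference of 0.03 (0.841), and Uhrf1, the partner of DNMT1, one of 3.39.

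Finally, the clusters were described as neighbourhoods. The chromosome 17 cluster (chr17:21520712-23004101) holds 10 members, 8 with a KRAB box: Zfp677, Zfp948, Zfp760, Zfp820, Zfp943, Zfp947, Zfp944, Zfp758, Zfp946 and Zfp945. The clusters were chosen after their values were seen, so the share of all genes called in the same direction is given beside each count. From E18.5 to P2.5 in control germ cells 5 were lower and none higher (21.0% of all genes lower), and from E16.5 to P10.5, 5 were lower and 1 higher (28.8% lower), with a median log2 difference of -0.81. In control testis from P10.5 to P14.5, 7 were lower and none higher (29.2% lower, median -0.40). In DNMT3L KO testis 6 were higher and none lower (24.9% higher, median 0.27), and in Morc1 KO testis at P14.5 3 were higher and none lower (14.8% higher). In the direct test 5 had a more positive log2 difference in the Dnmt3l line (8.14%). Zfp760, for example, was 2.88 to 3.78 RPKM in the Dnmt3l line controls and 4.22, 5.34 and 4.81 RPKM in the DNMT3L KO, with no overlap.

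The 5 KRAB genes of the chromosome 7 cluster (chr7:50442540-50873655) were higher in germ cells than in testis at P10.5 in 4 of 5, where 40.4% of all genes were, with log2 differences of 2.85 for Zfp936, 1.63 for Zfp819, 0.78 for Zfp715 and 0.48 for Zfp719, and one of 0.16 for Zfp658 (edgeR adjusted p = 0.529). Zfp715 and Zfp819, whose KRAB box stretch is identical, had different calls in the DNMT3L KO comparison, a difference that was not itself tested: Zfp819 was lower, and Zfp715 was 5.55 to 7.06 RPKM in controls and 5.10 to 5.56 RPKM in KO and was not called. Zfp715 was lower in Morc1 KO testis at P14.5, at 8.14, 8.15 and 8.23 RPKM against 10.3, 10.2 and 10.2 RPKM. All 5 tested members of a chromosome 13 cluster (chr13:66771705-67788008), Zfp712, Zfp738, Zfp759 and both Zfp708 rows, were higher in germ cells than in testis (40.4% of all genes higher, median log2 difference 1.02), and the 2 members called in the libraries labelled Miwi2 KO, where 0.506% of all genes were lower, belong to it.

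**Figure D5:**
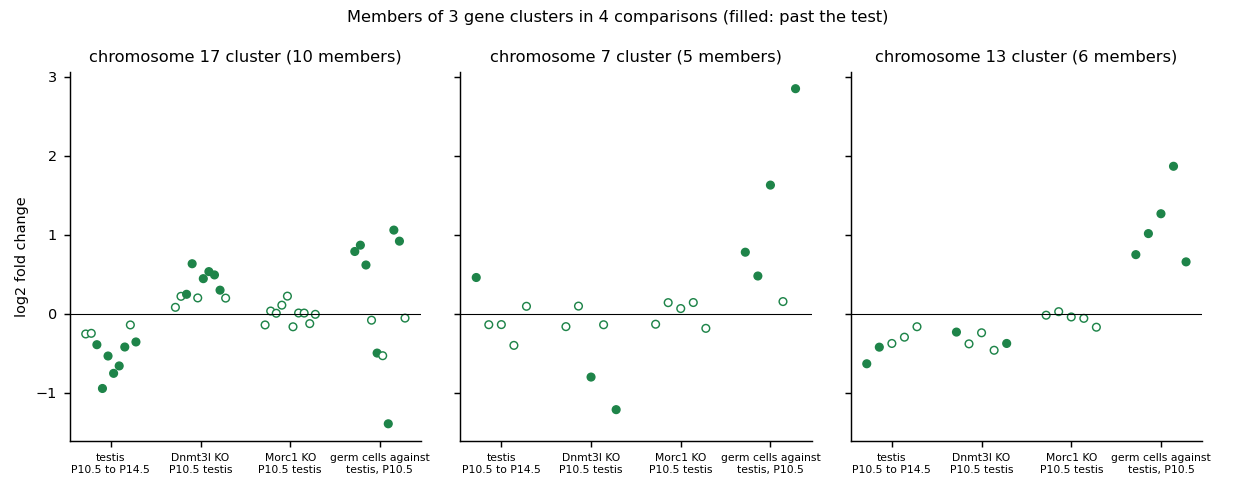
Log2 differences of the members of the chromosome 17, chromosome 7 and chromosome 13 clusters in 4 comparisons, with filled points for genes past the test and open points for the others. The chromosome 17 members lie below 0 in testis from P10.5 to P14.5 for 7 calls and above 0 in DNMT3L KO for 6, and the chromosome 7 and chromosome 13 members lie mostly above 0 in germ cells against testis.

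Across all 14 comparisons of groups, 9 members were called in none, 1 of which was never tested, and 78 of the 129 tested (60.5%) were called in at least 1 of the 8 genotype comparisons, close to the 61.0% over all genes tested. Zfp608, Zfp618 and Zfp710 were called most often, in 8 comparisons each. Zfp672 was called in 7, of which 4 were genotype comparisons, and it was lower in the mutant in all 4. The comparison from E16.5 to P10.5 spans the single steps in the same fit, and control libraries are reused. Calls of a gene are therefore not independent. Apart from the 61.0%, shares over all genes were not counted for these tallies.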

How the data were processed

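RNA-seq libraries of sorted germ cells (Ovation Human FFPE kit with depletion of mouse rRNA) and whole testis (TruSeq v2) were analysed from the deposited tables. The counts are reads per gene that the authors obtained with HTSeq after mapping with Bowtie to mm9, and the RPKM values, also deposited by the authors, are those counts per kilobase of exons and scaled to library size, with no sample pooled. HTSeq was run with its default settings and reads mapping to several locations were dropped, per the study's methods. Versions are not given in the sources used here.

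All genes were fitted with edgeR 4.0.16 in R 4.3.3 (TMM, filterByExpr, quasi-likelihood test, Benjamini-Hochberg adjusted p under 0.05), and the rows of the zinc finger genes were read from those fits. SE is the log2 difference divided by the square root of its F. RPKM served for levels only. The 4 control germ cell stages shared 1 fit. Groups came from the labels. Whole-testis controls at P10.5 pooled het and WT. Alternatives were DESeq2 1.42.0, DESeq2 size factors in edgeR, no filter, other controls, a replicate block, and each library left out in turn. The lowest chi-square per gene of 38 library pairs within groups was 4.52, so no pair looked like repeats of 1 library. Morc1 het controls were littermates of the KO mice per the study, but the labels do not say which libraries share a litter, and p-values measure the spread between these samples.

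The symbol rule uses no values, but the family and the gene lists were proposed with earlier results of these data known. Named genes were up to 5 rises and 5 falls per comparison with the largest difference among calls whose groups did not overlap, the 5 highest RPKM in control groups, and members on the list of published roles. Other members are named where a count or a cluster needed it, and these were chosen after their values were seen. Protein features came from translating GENCODE vM1 transcripts in place of the RefSeq proteins planned. On simulated data for the P10.5 germ cell comparison (14019 genes) 72.6% of changes of log2 1 and 95.1% of log2 2 were recovered, and for the Dnmt3l comparison (15665 genes) 87.5% and 99.1%. Intervals cover counting error only. Floors are 3 reads over a group.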

Additional observations from a re-analysis of the deposited data

Results flagged for a closer look

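Within the 4 Morc1 het germ cell libraries at P10.5, 68 named zinc finger genes were tested for 1 library far from the other 3 (gap over range above 0.829), and 5 were found, where chance gives about 1 in 20 groups. Zfp687 was 11.9 RPKM in 1 library and 16.3, 16.6 and 16.7 RPKM in the others. Zfp703 was 7.80 RPKM and 6.48, 6.51 and 6.56 RPKM in the others, Zfp740 was 10.96 RPKM and 9.20, 9.33 and 9.38 RPKM, and Zfp932 was 2.75 RPKM and 1.84, 1.89 and 1.94 RPKM. Zfp764 was 0.0738 RPKM in 1 library and 0 in the other 3. Its ratio is fixed by the tied values of 0 and rests on 3 reads, so this flag carries no information on spread.

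The Morc1 difference at P10.5 differed from that at E16.5 in germ cells for 1 gene, Zfp945, by 0.82 on the log2 scale in the interaction term of edgeR. The DNMT3L KO difference differed from the Morc1 KO difference in P10.5 testis for 19 genes in the same kind of test. The largest with groups that did not overlap were Zfp947 (0.65), Zfp938 (0.58), Zfp945 (0.58), Zfp760 (0.57) and Zfp948 (0.53) on the positive side and Zfp936 (-0.98), Zfp819 (-0.82), Zfp940 (-0.63) and Zfp661 (-0.51) on the negative side. The line and the genotype cannot be told apart in the second test.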

How the results depend on the processing

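No direction of a named gene or count reversed under any alternative. Leaving out each library in turn, the members called numbered 0 to 0 for Morc1 at E16.5, 0 to 3 at E18.5, 0 to 1 at P2.5, 10 to 18 in P10.5 germ cells, 1 to 7 in P10.5 testis and 19 to 42 at P14.5, 41 to 62 for Dnmt3l and 3 to 5 for the Miwi2 label. They numbered 2 to 32 from E16.5 to E18.5, 24 to 52 from E18.5 to P2.5, 25 to 55 from P2.5 to P10.5, 28 to 61 from E16.5 to P10.5, 58 to 67 in testis from P10.5 to P14.5, 78 to 88 in germ cells against testis, 0 to 1 for the Morc1 difference between P10.5 and E16.5, and 10 to 28 for Dnmt3l against Morc1. From E16.5 to P10.5, 28 were called without the E16.5 het replicate 2, and for the Miwi2 label 5 without either het library. DESeq2 called 3 at E18.5, 16 from E16.5 to E18.5 and 1 for the Miwi2 label, where its own filter gave an adjusted p to 54 members and to neither edgeR call. Without a filter, 1 was called at E18.5 and 2 between P10.5 and E16.5. With het controls alone, 3 were called in P10.5 testis. Same-numbered libraries did not deviate together in every pair of any comparison with 3 or more pairs, so the replicate block is given here. It called 3 members in P10.5 testis and 35 for the Miwi2 label, and left the other counts within 1.5 times. For the Miwi2 label the pair correlation of 0.32 is the same in its 2 pairs by construction. The share of all genes called with the block is not given, so the 35 cannot be set against it. From E16.5 to P10.5 the median of all genes moved from -0.18 to -0.23 with DESeq2 size factors and to -0.37 with DESeq2. Of the members, 101 to 129 had a read in a germ cell library and 127 to 129 in a testis library, and a count of 0 allows up to 3 reads.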
